A study of Oryctolagus cuniculus with 3 samples.

Results

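EMP1, GPRC5A, CLDN3, CLDN10 and DSG2 are 5 genes for proteins of the epithelial cell surface and of the junctions that hold epithelial cells together. They were chosen by name with earlier results of these data known, and every probe named for one of them was taken from the value table, which gave 9 probes of 22839 and 5 of 6486 named genes. All 9 probes that the array carries for these genes are in the table. The study set embryos that had been slow-frozen against embryos that had been vitrified. Morulae taken from rabbits on day 3 were stored in 1 of these 2 ways and transferred to recipient does, and the embryos were collected on day 6 as late blastocysts. Each of 3 Agilent rabbit arrays held RNA of frozen embryos in one channel and RNA of vitrified embryos in the other, so that both kinds of embryo met on the same array. The arrays are labelled as biological replicates, and the number of embryos behind each RNA is not stated. On replicates 1 and 3 Cy5 marked frozen and Cy3 marked vitrified embryos; replicate 2 had the opposite dyes. Per the labels, vitrification used dimethyl sulphoxide and ethylene glycol, direct plunging into liquid nitrogen and removal of the medium in sucrose. Strain and the freezing steps are not stated, and fresh embryos were not analysed here.

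The outer layer of the blastocyst, the trophectoderm, is an epithelium. Its cells are sealed by tight junctions, in which claudins of neighbouring cells pair and decide what passes between the cells, and are tied together by desmosomes, in which desmogleins are the adhesive cadherins. The seal lets the layer pump fluid inward and expand the blastocyst cavity. EMP1 and the claudins belong to one superfamily of small proteins that cross the membrane 4 times, while GPRC5A is an orphan G protein-coupled receptor of epithelia that retinoic acid induces in human cells.

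The probes are 60 bases long and lie in exonic sequence, since they were designed on transcripts. They are shown because they tell which values are separate measurements. Capitals mark the 20 bases that all probes of one gene share.

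GPRC5A: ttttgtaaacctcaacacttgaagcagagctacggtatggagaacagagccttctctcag
CLDN3: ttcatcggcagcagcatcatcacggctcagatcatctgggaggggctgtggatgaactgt
CLDN10, probe 1: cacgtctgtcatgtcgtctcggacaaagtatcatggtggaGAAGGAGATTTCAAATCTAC
CLDN10, probe 2: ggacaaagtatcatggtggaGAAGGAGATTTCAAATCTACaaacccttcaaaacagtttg
CLDN10, probe 3: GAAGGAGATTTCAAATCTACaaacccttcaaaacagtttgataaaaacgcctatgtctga
DSG2, probe 1: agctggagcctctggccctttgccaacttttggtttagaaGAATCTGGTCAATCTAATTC
DSG2, probe 2: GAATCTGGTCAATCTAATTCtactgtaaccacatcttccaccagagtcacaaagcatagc

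The 3 probes of CLDN10 step along the transcript and overlap, as do the 2 of DSG2, so their values are not independent of each other. The 2 probes of EMP1 do not overlap and start at bases 2498 and 2558 of the transcript, past its short coding sequence. Per the array annotation, whose genome build is not named, the EMP1 probes lie on the reverse strand at chr8:26497150-26497209 and chr8:26497090-26497149, and the GPRC5A probe lies on the same strand at chr8:26845813-26845872. The CLDN10 probes start on the forward strand at chr8:97463225-97463284 and end at chr8:97463265-97463324, and the DSG2 probes lie at chr9:72814434-72814493 and chr9:72814474-72814533. The CLDN3 probe is listed as unmapped. CLDN3 and GPRC5A rest on 1 probe each.

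Each value is the log2 of the signal in frozen embryos over that in vitrified embryos, so values above 0 mean more signal in frozen embryos. The direction of the column of replicate 2 is not stated. The 10 spike-in probes of replicates 1 and 3 had a correlation of 0.99, and those of replicate 2 had -1.0 with either, so the column had probably been turned to frozen over vitrified after the dyes were exchanged. Over all probes replicates 1 and 2 correlated at -0.36, replicates 1 and 3 at -0.01 and replicates 2 and 3 at 0.48. Because of the first of these values no direction can be called settled, and means with the sign of replicate 2 turned are given beside the means as read.

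As read, EMP1 had the highest mean ratio of the table, and its 2 probes took ranks 1 and 2 of 22839. The brighter probe had log2 ratios of 0.45, 2.01 and 2.19 on replicates 1, 2 and 3. The other probe had 0.14, 2.16 and 2.32. EMP1 was therefore higher in frozen embryos on every array as read, by at least 4-fold on replicates 2 and 3 and by little on replicate 1. The mean of the brighter probe was 1.55 ± 0.96 (SD, n = 3), which is 2.93 times the signal of vitrified embryos, and that of the other was 1.54 ± 1.21 (SD, n = 3). With the sign of replicate 2 turned the means were 0.21 and 0.099.

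**Figure D1:**
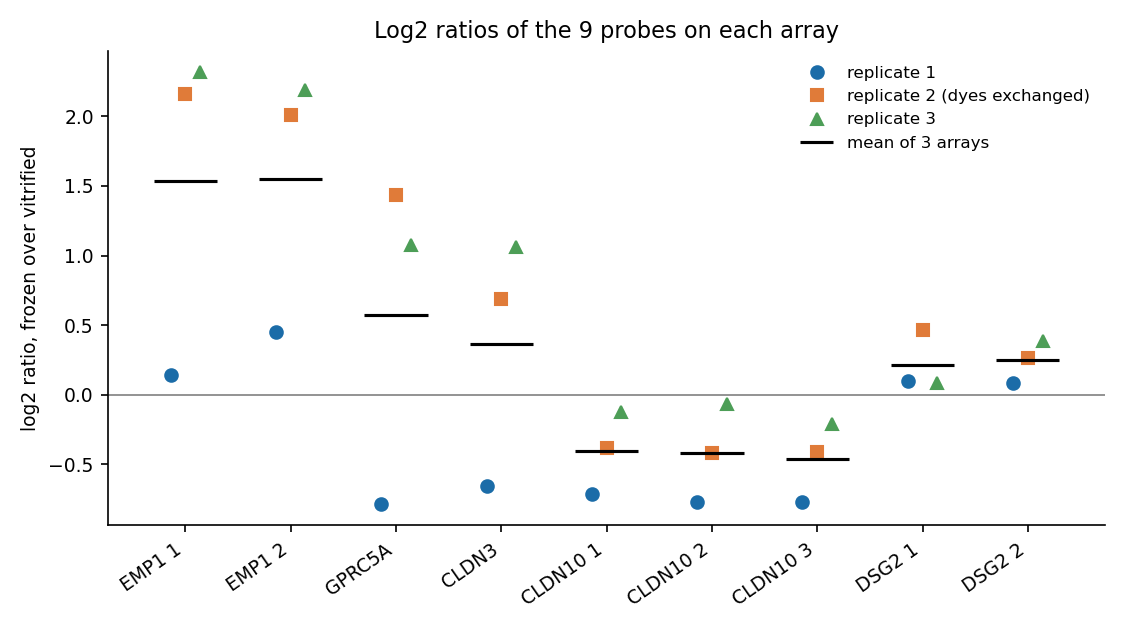
Log2 ratio of frozen over vitrified embryos (y axis) for each of the 9 probes (x axis, numbered from the 5' end of the transcript); points are the 3 arrays and black lines their means. Both probes of EMP1 reach 2.01 or more on replicates 2 and 3, GPRC5A and CLDN3 change sign between replicate 1 and the other arrays, and every point of CLDN10 is below 0.

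The brighter EMP1 probe is printed at 5 places of each array, which shows the error within an array. Its 5 ratios ran between 0.40 and 0.51 on replicate 1 (SD 0.043) and between 2.13 and 2.24 on replicate 3 (SD 0.051). This spread is the error of printing and reading, not that between embryos.

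The signals behind the ratios, read from the scanner files of replicates 1 and 3, show where EMP1 differed between arrays. Its brighter probe had processed signals of 1453 and 1145 in frozen embryos on replicates 1 and 3, against 1064 and 251 in vitrified embryos. The signal in frozen embryos was thus similar on both arrays, 1.27 times as high on replicate 1 as on replicate 3. In vitrified embryos it was 4.23 times as high on replicate 1, against a median of 1.14 over all probes, and only 0.123% of probes had a higher value. The second probe ran the same way, at 1.15 times in frozen and 5.20 times in vitrified embryos. The scanner file of replicate 2 was not used here.

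GPRC5A had log2 ratios of -0.78, 1.43 and 1.08 on replicates 1, 2 and 3. It was lower in frozen embryos on replicate 1 and at least 2-fold higher on both other arrays, and its mean was 0.58 ± 1.19 (SD, n = 3). The processed signal was low, at 80.4 and 149 in frozen embryos on replicates 1 and 3, against 138 and 70.5 in vitrified embryos. The higher channel was therefore that of vitrified embryos on one array and that of frozen embryos on the other, although both arrays had the same dye orientation. The probe's spot on each of these arrays was well above background in both channels. With the sign of replicate 2 turned the mean was -0.38.

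CLDN3, a claudin that tightens the barrier between epithelial cells, had log2 ratios of -0.65, 0.69 and 1.06 on replicates 1, 2 and 3. The order of the arrays' signs was that of GPRC5A, and the mean was 0.36 ± 0.90 (SD, n = 3). Its processed signals were 730 and 1665 in frozen embryos on replicates 1 and 3, against 1149 and 797 in vitrified embryos. The signal in frozen embryos was 2.28 times as high on replicate 3 as on replicate 1, while the median over all probes was 0.895. In contrast to EMP1, CLDN3 thus differed between these arrays more in frozen than in vitrified embryos. With the sign of replicate 2 turned the mean was -0.093.

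**Figure D2:**
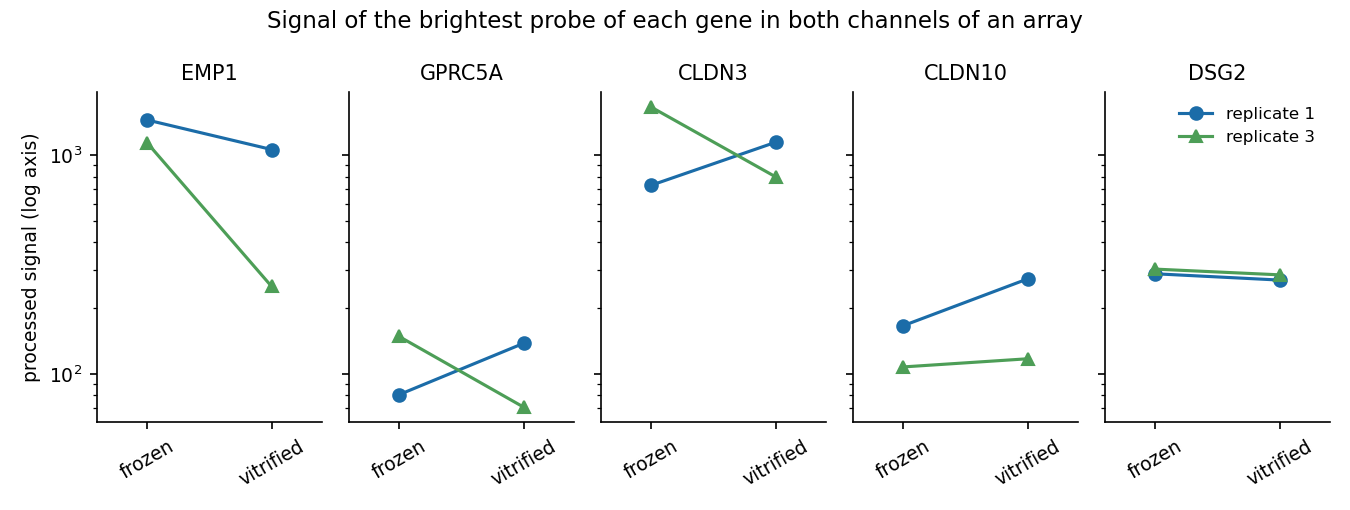
Processed signal (y axis, log scale) of the brightest probe of each gene in the frozen and the vitrified channel of replicates 1 and 3; a line joins the channels of an array. The lines of GPRC5A and CLDN3 cross, and the low EMP1 signal of 251 belongs to vitrified embryos of replicate 3.

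CLDN10, a claudin whose isoforms form pores for ions, was the only one of the 5 genes that lay below 0 on all arrays as read. Its brightest probe had log2 ratios of -0.71, -0.38 and -0.12 on replicates 1, 2 and 3, a mean of -0.41 ± 0.30 (SD, n = 3). The 2 overlapping probes had means of -0.42 ± 0.35 and -0.46 ± 0.29. The difference was largest on replicate 1, where the processed signal of the brightest probe was 166 in frozen against 272 in vitrified embryos, and small on replicate 3, with 108 against 117. Turning replicate 2 gave the 3 probes means of -0.19 to -0.14. Background correction by normexp and loess normalization of the scanner signals of replicates 1 and 3 gave -0.13 for the brightest probe, against -0.42 from the processed signals of the same arrays.

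DSG2, the desmoglein of simple epithelia, had the smallest mean in size of the 5 genes as read. Its brighter probe had log2 ratios of 0.096, 0.47 and 0.087 on replicates 1, 2 and 3, and the overlapping probe had 0.084, 0.27 and 0.39. The means were 0.22 ± 0.22 and 0.25 ± 0.15 (SD, n = 3), and the probes disagreed on which array was highest. Processed signals of the brighter probe were 287 and 302 in frozen embryos on replicates 1 and 3, against 269 and 284 in vitrified embryos, so the 4 values lay close together. With the sign of replicate 2 turned the means were -0.095 and 0.069.

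The 5 genes did not share a pattern over the arrays. The counts that follow take replicate 2 as read. By brightest probe 2 genes, EMP1 and DSG2, lay above 0 on all 3 arrays and 1 gene, CLDN10, below 0. Of all named genes 10.7% lay above and 11.6% below 0 on all 3, and of all probes 11.7% and 10.9%. On replicates 2 and 3 alone 4 of the 5 genes were above 0 and 1 below, against 36.2% and 25.8% of named genes. Counted by probe, overlapping ones included, 6 of the 9 were above 0, against 33.4% of all probes. The 3 CLDN10 probes were below 0, against 27.6%. GPRC5A and CLDN3 were below 0 on replicate 1 and above 0 on both other arrays. This order was found in 21.8% of all probes and 25.5% of named genes. At a size of 1.5-fold on each array, which both reached, it was found for 57 probes (0.25%). On replicates 2 and 3 both EMP1 probes and the GPRC5A probe were at least 2-fold higher in frozen embryos, as were 0.123% of all probes (28 probes). Each of the 9 probes had 1 sign on replicates 2 and 3 as read. Turning the sign of replicate 2 therefore fixes 3 counts at 0 of the 9 probes. These are 1 sign on all arrays, 1 sign on replicates 2 and 3, and the mixed order, so they add nothing about the genes. Of all probes 13.8% then lay above and 13.2% below 0 on all arrays, and 5.61% had the mixed order. On replicates 2 and 3 19.4% then lay above and 19.6% below 0. These shares place the genes in the table and are no test, because the genes were chosen from this comparison.

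**Figure D3:**
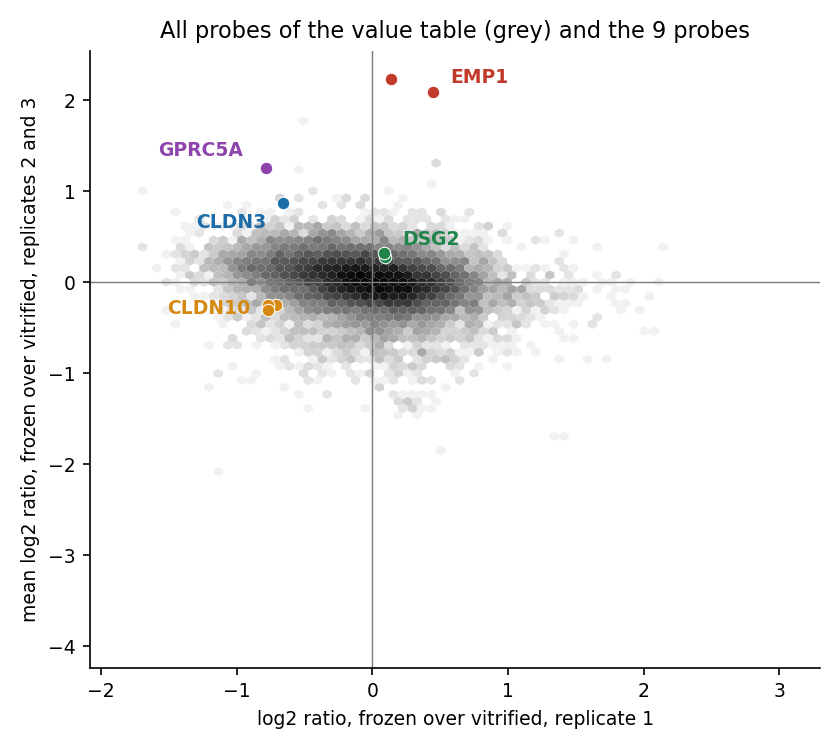
Log2 ratio of frozen over vitrified embryos on replicate 1 (x axis) against the mean of replicates 2 and 3 (y axis); grey hexagons are all 22839 probes, darker where probes are denser on a log scale, and coloured points are the 9 probes. EMP1 stands at the top right of the axis crossing, GPRC5A and CLDN3 lie at the top left, CLDN10 at the bottom left and DSG2 near the centre.

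In limma's moderated test against 0 with Benjamini-Hochberg adjustment over all 22839 probes, 0 probes (0% of the table) had an adjusted p under 0.05, and 1020 (4.47%) had an unadjusted p under 0.05. The brighter EMP1 probe had an adjusted p of 0.81 in that fit and a 95% interval of the mean log2 ratio between 0.65 and 2.45. GPRC5A, CLDN3, CLDN10 and DSG2 had adjusted p of 1.00 in limma, with intervals of -0.52 to 1.67, -0.49 to 1.22, -0.82 to 0.0041 and -0.15 to 0.59. These intervals are wide next to the means, and all 4 hold 0. The interval of the third CLDN10 probe did not, at -0.87 to -0.057 (limma, unadjusted p = 0.032, adjusted p = 1.00).

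The values depend on replicate 1. Without it limma called 796 probes, 243 higher (1.06%) and 553 lower (2.42%) in frozen embryos. EMP1 then had a mean of 2.10 (limma, adjusted p = 0.00074), GPRC5A 1.25 (adjusted p = 0.0060) and CLDN3 0.87 (adjusted p = 0.022). CLDN10 had -0.25 (limma, adjusted p = 0.44) and DSG2 0.28 (adjusted p = 0.42). That fit rests on 2 arrays of opposite dye orientation whose agreement depends on how replicate 2 is read. The genes were chosen from this comparison, so these adjusted p-values are no test of them. Without replicate 2 the means were 1.32 for EMP1, 0.15 for GPRC5A, 0.20 for CLDN3, -0.42 for CLDN10 and 0.092 for DSG2, and without replicate 3 they were 1.23, 0.33, 0.016, -0.55 and 0.28 in the same order. Neither of these fits called a probe.

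The signs of lineage markers differed between the arrays too. Of a list of 20 hypoblast markers 11 were measured, and their median log2 ratios on replicates 1, 2 and 3 were -0.06, -0.70 and -0.93, the opposite order to that of EMP1. Their summed signal was 4313 and 4172 in frozen embryos on replicates 1 and 3, against 3676 and 9555 in vitrified embryos. APOA1 had 0.51, -1.38 and -2.20 on the 3 arrays, and RBP4 had 0.66, -1.98 and -1.76. Of 21 trophoblast markers 11 were measured, with medians of -0.17, 0.24 and 0.17. Their summed signals were 113152 and 127269 in frozen embryos on replicates 1 and 3, against 143228 and 116840 in vitrified embryos. The sum of each marker list, here and below, adds probes of different brightness and is weighted towards the brightest. FABP3 was the brightest trophoblast marker, with a mean log2 signal of 16.44, and KRT8 the next, with 13.97. The trophoblast sum therefore mostly follows FABP3 and is not a level of the 11 genes. Among the trophoblast markers GATA3 had -0.04, 0.56 and 0.76 on the 3 arrays, and DAB2 0.80, 0.15 and -0.08. As read 8 of the 11 had a mean above 0 and 3 a mean below 0. HAND1, with 1 dim probe, was below 0 on every array as read, at -0.16, -0.32 and -0.35. It was named after its values were seen. CDX2, GATA6 and SOX17, which define these lineages, were not measured by a named probe. The part of a different mix of cells in the values of EMP1, GPRC5A and CLDN3 was not tested, and in whole embryos fewer cells of a type and less RNA per cell cannot be told apart.

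Epithelia of the recipient could also carry these genes, and the part of recipient tissue in their values was not tested. Of 18 uterine markers 7 were measured, with medians of -0.07, -0.01 and -0.28 on replicates 1, 2 and 3 and summed signals of 1481 and 921 in frozen embryos, against 1720 and 938 in vitrified embryos. SCGB1A1, the uteroglobin of the rabbit uterus, had -0.67, -0.62 and 0.13 on the 3 arrays by its brightest probe. Its 10 probes had means between -1.05 and -0.33 as read. HOXA11 had -0.30, -0.01 and -1.0. Of 15 blood and immune markers 6 were measured, with medians of -0.07, -0.11 and 0.09 and summed signals of 506 and 650 in frozen embryos, against 465 and 663 in vitrified embryos. ALAS2, which starts haem synthesis in red cells, had 0.34, -1.73 and -1.21, and S100A9 had 0.54, -0.15 and 0.25. Of 20 epiblast markers 9 were measured, with medians of -0.63, 0.12 and -0.29 and summed signals of 19975 and 15087 in frozen embryos, against 19052 and 22563 in vitrified embryos. POU5F1, the pluripotency factor OCT4, had -0.75, -0.52 and -1.62 on the 3 arrays, and ETV4 had -1.04, -0.06 and -0.63. Probe position counted differently between arrays. Over 213 transcripts whose outermost probes lie 500 or more bases from each other, the median of the log2 ratio at the 3' probe minus that at the 5' probe was 0.24, -0.13 and -0.06 on replicates 1, 2 and 3. The part of this in the EMP1 values, whose probes lie near the 3' end, was not tested.

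Other genes of the same structures were described from 9 lists, chosen with earlier results known. Outside the 5 genes the lists hold 148 genes, of which 66 were measured. Their median log2 ratio was -0.0049, against -0.013 over all 6486 named genes. Above 0 on all 3 arrays were 6 of the 66, and below 0 were 5, where 10.7% and 11.6% of named genes were, all as read. With replicate 2 turned the counts were 4 and 12 of the 66, against 715 and 993 of the 6486 named genes. In limma 0 of them passed after adjustment, and 5 had an unadjusted p under 0.05, against 4.19% of named genes.

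Of 22 claudins 10 were measured, with a median mean ratio of 0.02. As read, CLDN3 was the highest of them and CLDN10 the lowest but CLDN8, while with replicate 2 turned CLDN12 was the highest, at 0.16, and CLDN6 the lowest, at -0.37, against -0.093 for CLDN3 and -0.15 for CLDN10. CLDN8, a barrier claudin of tight epithelia, had -1.18, -0.72 and 0.12 on replicates 1, 2 and 3 from 1 dim probe. CLDN20 had -0.03, 0.31 and 0.58 on the 3 arrays. CLDN4, the neighbour of CLDN3 in function as a barrier claudin, had the same order of signs at a smaller size, with -0.50, 0.58 and 0.39; it was named after its values were seen. Of 29 tight junction partners 21 were measured, with a median of -0.02. AMOTL1, a scaffold of the angiomotin family, had -0.64, -0.25 and -0.42, while YBX3, a junction-associated Y-box protein, had -0.25, 0.54 and 0.55.

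Among desmosomal genes 6 of 16 were measured, with a median of 0.08, and as read DSG2, at 0.22, lay next to PKP4, at 0.21. With replicate 2 turned DSG2 had -0.095 and DSP, the desmoplakin, 0.065. The armadillo protein PKP4 had 0.19, 0.58 and -0.13 on replicates 1, 2 and 3, and its 2 probes had means of 0.21 and 0.49. PERP, a membrane protein of desmosomes, had 0.25, 0.19 and -0.18. The adherens junction list had 6 of 16 genes measured and a median of 0.02. NECTIN2 had -0.72, 0.06 and -0.21 on the 3 arrays, and CTNND1, the p120 catenin, had -0.23, 0.49 and 0.24. No gene of these lists reached a mean of 1.5-fold.

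Of 14 gap junction genes 5 were measured, with a median of 0.05. GJA1, the main connexin of many tissues, was below 0 on every array as read, at -0.53, -0.81 and -0.78, a mean of -0.71 ± 0.15 (SD, n = 3; limma, unadjusted p = 0.0028, adjusted p = 0.81). Its 2 probes had means of -0.71 and -0.64. In the family of EMP1 the array has 4 of 7 genes, and 2 were measured. The second was LIM2, known from the lens, with 0.87, 0.65 and 0.54 on replicates 1, 2 and 3 and a mean of 0.69 ± 0.17 (SD, n = 3; limma, adjusted p = 0.81), and its 5 probes had means between 0.67 and 0.69. Turning the sign of replicate 2 left GJA1 at -0.17 and LIM2 at 0.25. EMP1 and LIM2 were thus both higher in frozen embryos on all arrays as read, but LIM2 differed most on replicate 1 and EMP1 least there. PMP22 and EMP3, other members of the family, have a probe each outside the value table and were not compared. On replicates 1 and 3 both were well above background in frozen embryos. In vitrified embryos only EMP3 on replicate 3 was. Over all spots 66.0% were so in frozen and 54.4% in vitrified embryos on replicate 1, and 68.5% and 58.2% on replicate 3. Genes dim in either channel of these arrays are therefore not in the list medians.

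In the GPRC5 family 3 of 4 genes were measured. GPRC5A had the highest mean as read, while with replicate 2 turned it had -0.38, against -0.041 for GPRC5B and -0.41 for GPRC5C. GPRC5C had -0.86, 0.19 and -0.18 on replicates 1, 2 and 3 and GPRC5B had 0.05, -0.15 and -0.32. Of 10 keratins 2 were measured. KRT8, a keratin of simple epithelia and of the trophectoderm, had -0.74, 0.37 and -0.10, and KRT19 had -0.17, 0.12 and 0.04. Of 35 other genes of the epithelial membrane, hemidesmosome and their regulators 16 were measured, with a median of 0.04. PROM1, a protein of membrane protrusions, was below 0 on every array as read, at -0.92, -0.69 and -0.30, a mean of -0.63 ± 0.31 (SD, n = 3; limma, unadjusted p = 0.011, adjusted p = 0.87), and it had -0.18 with the sign of replicate 2 turned.

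**Figure D4:**
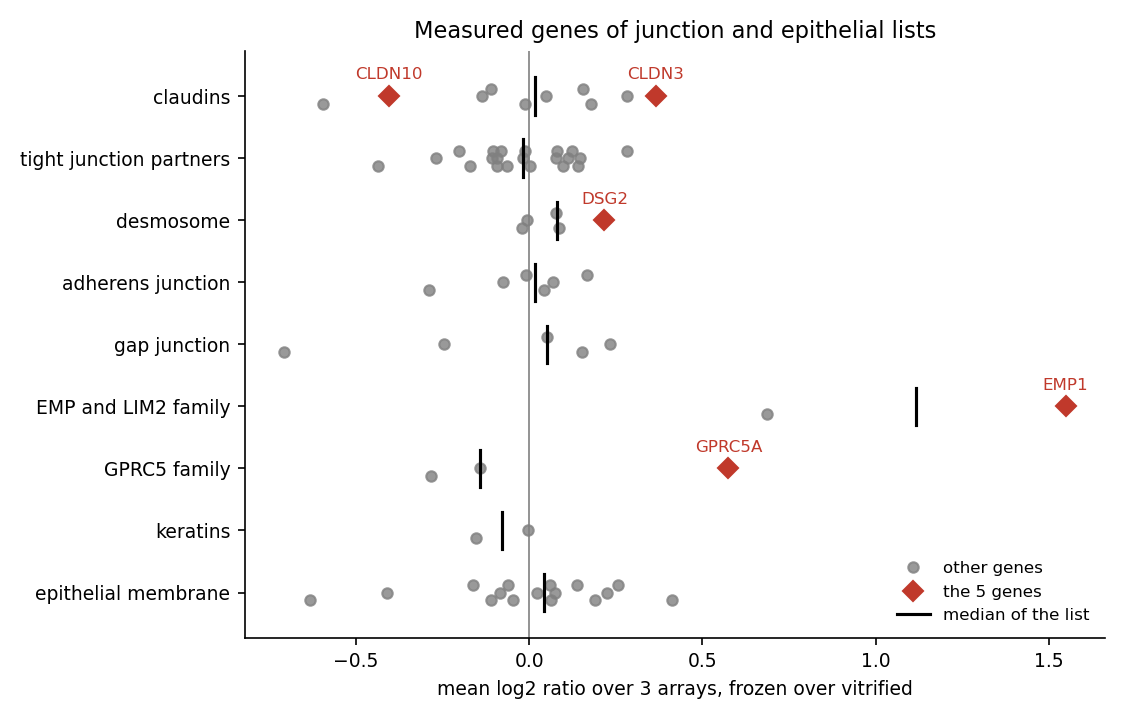
Mean log2 ratio of frozen over vitrified embryos over the 3 arrays (x axis) for each measured gene of the 9 lists (y axis); red diamonds are the 5 genes, grey points the others, shifted vertically for legibility, and black bars the median of each list. As read, EMP1 at 1.55 is the gene farthest from 0 (0.21 if replicate 2 is turned), and the list medians lie near 0 except for the family of EMP1, in which 2 genes were measured.

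The sign order of GPRC5A and CLDN3 was found as read in 24 of the 66 genes (36.4%), against 25.5% of all named genes. At 1.5-fold on each array it was found as read in 0 of the 66, against 16 of the 6486 named genes (0.247%). With replicate 2 turned 3 of the 66 genes (4.55%) had this order at any size, against 6.11% of all named genes. The widest of the 24 as read, named after their values were seen, were SPINT1, CLDN4 and CTNNA1. SPINT1, an inhibitor of epithelial surface proteases, had -1.02, 0.52 and 0.24 on replicates 1, 2 and 3. CTNNA1, the alpha catenin of adherens junctions, had -0.73, 0.40 and 0.10.

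Likeness was measured as the Euclidean distance between the 3 log2 ratios of 2 genes' brightest probes, so a low value means close ratios on all arrays. The gene nearest to EMP1 among the named genes was ANGPTL4, an inhibitor of lipoprotein lipase, at a distance of 0.61, with 0.60, 1.62 and 1.75 on replicates 1, 2 and 3. The next was FBP2, a fructose bisphosphatase, at 1.38. Nearest to CLDN3 were WNT2, a signalling ligand (0.15), and SLC19A3, a thiamine transporter (0.22). Nearest to GPRC5A were COX7B2 (0.42) and BAG2, a co-chaperone (0.46). CLDN10 was nearest to REC8 (0.12) and CARMIL1 (0.12), and DSG2 to SH3GL2 (0.024) and GRAMD1C (0.054). Among 6485 genes CLDN3 ranked 12 in likeness to GPRC5A, but GPRC5A ranked 159 in likeness to CLDN3. GPRC5A ranked 11 in likeness to EMP1, but EMP1 ranked 2036 in likeness to GPRC5A. CLDN3 ranked 38 in likeness to EMP1, but EMP1 ranked 6087 in likeness to CLDN3. Distances over 3 arrays find close values easily where ratios are small, as for DSG2.

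EMP1 and GPRC5A lie near each other on chromosome 9 of the RefSeq rabbit assembly mOryCun1.1, with 4 protein-coding genes between them. Of these HEBP1, a haem-binding protein, was measured, with -0.01, -0.22 and -0.35 on replicates 1, 2 and 3. DDX47, an RNA helicase gene on the other side of GPRC5A, had -0.49, 0.15 and 0.07. Both were named after their values were seen. Neither reached 1.5-fold on any array, whereas EMP1 and GPRC5A exceeded 2-fold on replicates 2 and 3.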

How the data were processed

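Total RNA of day 6 rabbit embryos was hybridised to 3 arrays with 2 channels. Per the file headers, the authors' scanner files hold raw intensities and processed intensities that were spatially detrended and dye-normalized, without local background subtraction, by Agilent Feature Extraction 10.10.1.1 (version per the submitters' processing notes), with a log10 ratio of red over green and quality flags per spot; scanner files of replicates 1 and 3 were used. The deposited value table holds log2 ratios of 22839 probes and 26 controls; its scale was found by setting it against the scanner files (largest differences 3e-06 and 2e-06), the direction of replicate 2 is unstated, and it is not centred further (medians -0.015, 0.021 and 0.017). Which filter made the table is not stated; each of its probes was well above background and none was saturated on replicates 1 and 3.

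Probes were named from the accessions, gene numbers and symbols in the scanner files through the current RefSeq table (13844 probes, 6486 genes; 8995 without a symbol). The brightest probe stood for a gene. Ratios were tested against 0 by lmFit and eBayes of limma 3.58.1 under R 4.3.3, after a trial on simulated data; Python 3.11.15 and pandas 2.3.3 joined the tables. The arrays' number limits precision, and their spread holds biological and technical variation together. Members and lists were chosen with earlier results of these data known. Junction and epithelial list genes named are those with 1 sign on all arrays and a mean of at least 1.5-fold, up to 4 a list, or else the 2 with the largest mean in size; of each marker list the 2 with the largest mean in size, and the 2 nearest genes of each member, are named too.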

Additional observations from a re-analysis of the deposited data

How the results depend on the processing

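The count of called probes was 0 as reported and under each of the 10 alternatives tried except 1: leaving out each replicate in turn gave counts between 0 and 796 (limma), the 796 being those without replicate 1. By brightest probe, turning the sign of replicate 2 reversed GPRC5A to -0.38, CLDN3 to -0.093 and DSG2 to -0.095. It left EMP1 at 0.21 and CLDN10 at -0.15. Over all settings, other probe rules included, EMP1 ranged between 0.21 and 2.10, GPRC5A between -0.38 and 1.25, CLDN3 between -0.093 and 0.87, CLDN10 between -0.55 and -0.13 and DSG2 between -0.095 and 0.28. GPRC5A had 0.79 with dye orientation as a covariate. CLDN10 lay lower in size with normexp and loess on the scanner files. Its brightest probe then had -0.13, the second -0.052 and the third -0.075. The filter on dim probes, which keeps those with a mean log2 signal of at least 7, leaves out GPRC5A. With replicate 2 turned the list medians were -0.10 for claudins, -0.14 for desmosomal, -0.22 for adherens junction and -0.032 for other epithelial membrane genes, all above 0 as read, and 0.23 for the family of EMP1, against 1.12 as read. The causes of these differences were not tested. The ratio of each array already pairs both kinds of embryo, so the limma fit is itself the paired analysis, and no further replicate block could be fitted. All member spots of replicates 1 and 3 were well above background.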
